A study of Mus musculus with 39 samples.

Results

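Mest and 7 other imprinted genes that act on growth (Peg3, Plagl1, Igf2, H19, Dlk1, Cdkn1c and Grb10) were followed in mouse subcutaneous adipose tissue. They were picked by gene name and read by all their probes, which gave 13 of the 40628 probes and 8 of the 29411 gene names on the array. Earlier results of the same arrays had led to Mest, so the values that the choice rested on (levels by diet and time, and correlation with Mest) are given as a description. Where the 8 genes are counted past a threshold of the fit over all genes, the count stands beside the share of all genes and nothing is read from it.

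Weaned C57BL/6J mice, aged 3 to 4 weeks at the start and 30 per diet, ate a low-fat control diet with 10% of calories from fat (LFC, 10 arrays) or a high-fat diet with 60% of calories from fat and added sucrose (HFC, 11 arrays). A further 3 diets joined that high-fat diet with KAL-1, an aqueous botanical formulation, at 5 µg (HF5), 20 µg (HF20) or 75 µg (HF75), with 6 arrays each. HFC and LFC shared 10 time points (Week 0, Days 6, 10 and 14, then Week 3 to Week 18 at intervals of 3 weeks). HFC had Day 1 as well, and the KAL-1 diets ran from Week 3 to Week 18. Weeks were counted from Day 14, so that Day 14 and Week 0 fell at the same time, and 5 animals per diet were killed at each 3-week interval. Each diet had 1 array per time point, and neither the sex of the mice nor the number of mice behind an array was given in the sources used here, so n counts arrays and the spread within a diet is that between time points. The series text speaks of 3 biological replicates per diet, while its samples hold 1 array for each diet and time.

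An imprinted gene is read from only one parental copy, because marks set in the egg or the sperm lead to the silence of the other copy. Mest, Peg3, Plagl1, Igf2 and Dlk1 are read from the paternal copy, and H19, Cdkn1c and, in most tissues, Grb10 from the maternal copy. Paternally read genes as a group tend to favour growth and maternally read ones to restrain it, many are high in the fetus and fall after birth, and Mest is known in fat as a gene of expanding adipose tissue. The arrays measured total transcript and did not separate the parental copies.

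The probes of 60 bases place the genes in several imprinted regions. By the annotation of the array, the genes lay on chromosome 6 band B1 (Mest), chromosome 10 band A2 (Plagl1), chromosome 7 band A2-B1 (Peg3), chromosome 12 band E-F1 (Dlk1), chromosome 11 band A1 (Grb10) and chromosome 7 band F5 (Igf2, H19 and Cdkn1c). The first 30 bases of the probes behind the 4 genes that carry most of the results are shown, in lower case and 5′ to 3′.
Mest, probe GT_Mm_44k_51_P124535: tctgaaagacctaagagcaaatggtgctga
Plagl1, probe GT_Mm_44k_52_P532456: tgcccagtatatatctcctaacctttgatg
Peg3, probe GT_Mm_44k_51_P206037: tcaagagattgaggttgaagaaccatacta
H19, probe GT_Mm_44k_51_P142196: ttcctgtaattctgtttctttccttttgtt

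Mest, Plagl1 and Peg3 had their highest Week 3 to Week 18 means under the same diet, so their promoters are also shown. RefSeq sequence on GRCm38.p6 held a promoter of 300 bases, 250 before and 50 after the start, for 6 of the 8 genes, with 12 promoters among them; H19 and Cdkn1c had no entry. The capitals mark CpG dinucleotides, the bases at which imprinting marks are set by methylation. Methylation was not measured here.
Mest, chr6:30737800-30738099, plus strand: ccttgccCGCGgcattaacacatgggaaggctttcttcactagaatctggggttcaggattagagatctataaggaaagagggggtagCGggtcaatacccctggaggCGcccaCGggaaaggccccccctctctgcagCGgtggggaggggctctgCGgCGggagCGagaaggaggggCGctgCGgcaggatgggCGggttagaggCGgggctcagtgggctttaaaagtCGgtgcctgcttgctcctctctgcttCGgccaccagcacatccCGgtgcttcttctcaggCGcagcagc
Plagl1, chr10:13090582-13090881, plus strand: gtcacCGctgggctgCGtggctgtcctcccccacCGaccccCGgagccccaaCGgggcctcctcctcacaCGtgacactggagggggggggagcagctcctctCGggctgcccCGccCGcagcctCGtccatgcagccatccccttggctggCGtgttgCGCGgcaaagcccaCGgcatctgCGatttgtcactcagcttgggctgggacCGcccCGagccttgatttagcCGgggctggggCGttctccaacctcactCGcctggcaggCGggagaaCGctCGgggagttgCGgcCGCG
Peg3, chr7:6730370-6730669, minus strand: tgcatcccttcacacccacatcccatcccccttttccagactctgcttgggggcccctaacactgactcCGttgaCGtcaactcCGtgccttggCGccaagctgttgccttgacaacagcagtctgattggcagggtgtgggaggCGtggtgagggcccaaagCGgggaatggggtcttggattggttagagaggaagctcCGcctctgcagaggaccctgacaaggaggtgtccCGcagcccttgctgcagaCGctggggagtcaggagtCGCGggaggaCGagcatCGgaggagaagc

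Mest had 3 promoter entries, of which the one shown, chosen as the first of a pair whose starts lie 3 bases apart and which hold the most CpG, held 17 CpG, more than 68.6% of the 32851 promoters of that length, against a median of 7 over all of them. The other Mest promoter, upstream of these, held 8 CpG, more than 51.4%. The Plagl1 promoter held 26 CpG, more than 83.1% of promoters, and the Peg3 promoter 13, more than 62.1%. The letters GGGGCCCC, a sequence that the zinc-finger protein Plagl1 is known to bind and that reads the same on both strands, occurred in 1 of the 12 promoters of these genes, that of Peg3. They occurred in 354 of all promoters, or 1.08%.

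The level of a gene is the log2 of its processed spot intensity minus the log2 75th percentile of its array, so 0 is the 75th percentile of that array, and a difference of 1 is a doubling of signal. A gene with several probes is read from the brightest, and levels of different genes are not set against each other, since probes differ in how they bind. On the array with the fewest bright spots (HF75, Week 3) 49.3% of spots were well above background, and on that with the most (HF20, Week 15) 87.8% (median 65.7%). HF20 Week 15 stood apart with 4936 spots flagged as outliers, where every other array had 17 to 474. Without that week the Mest difference of HF20 from HFC, -2.10 in all, was -2.37. Precision is limited by having only 39 arrays. The mean level of 10 mature adipocyte markers lay between 2.16 and 5.96 on all 39 arrays, above the 75th percentile of each array. The mean of 11 skeletal muscle markers was between -4.14 and 7.61 (median -0.35), and its top arrays were HF75 Week 3 (7.61), HFC Day 1 (6.18), HF5 Week 12 (5.74), HFC Day 6 (5.20), LFC Day 6 (4.69) and HFC Day 10 (3.49). In a bulk sample, fewer cells of a type and less RNA per cell cannot be told apart. At Week 12 the deposited ratio column named HF5 follows the array labelled HF20 (r = 1 over 37853 probes) and the reverse, so the labels of this pair of arrays conflict. Groups follow the array labels, and values with the pair exchanged are given where they bear on a result.

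Mest, which encodes a membrane protein of the alpha/beta hydrolase family, was well above background on all 39 arrays. Under HFC its level was 1.86 at Day 1, 2.20 at Day 6, 1.82 at Day 10, 3.53 at Day 14 and 3.16 at Week 0. It was then 4.62 at Week 3, 3.82 at Week 6, 3.54 at Week 9, 2.30 at Week 12, 0.38 at Week 15 and 1.37 at Week 18. The high-fat tissue was thus at its highest from Week 3 to Week 9 (mean 4.00 ± 0.56, SD, n = 3) and lower from Week 12 to Week 18 (mean 1.35), where its highest array was below the lowest of the earlier weeks.

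Under LFC the Mest level was 3.02 at Day 6, 1.74 at Day 10, 2.52 at Day 14 and 1.93 at Week 0. It was -0.028 at Week 3, 1.48 at Week 6, 0.73 at Week 9, 0.46 at Week 12, 0.70 at Week 15 and 0.16 at Week 18. The low-fat tissue was high only at the 4 early time points, and all its later arrays were below all its early ones. HFC stood above LFC at 8 of 10 time points, and the widest gap was at Week 3, where the level under HFC was 4.65 higher.

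**Figure D1:**
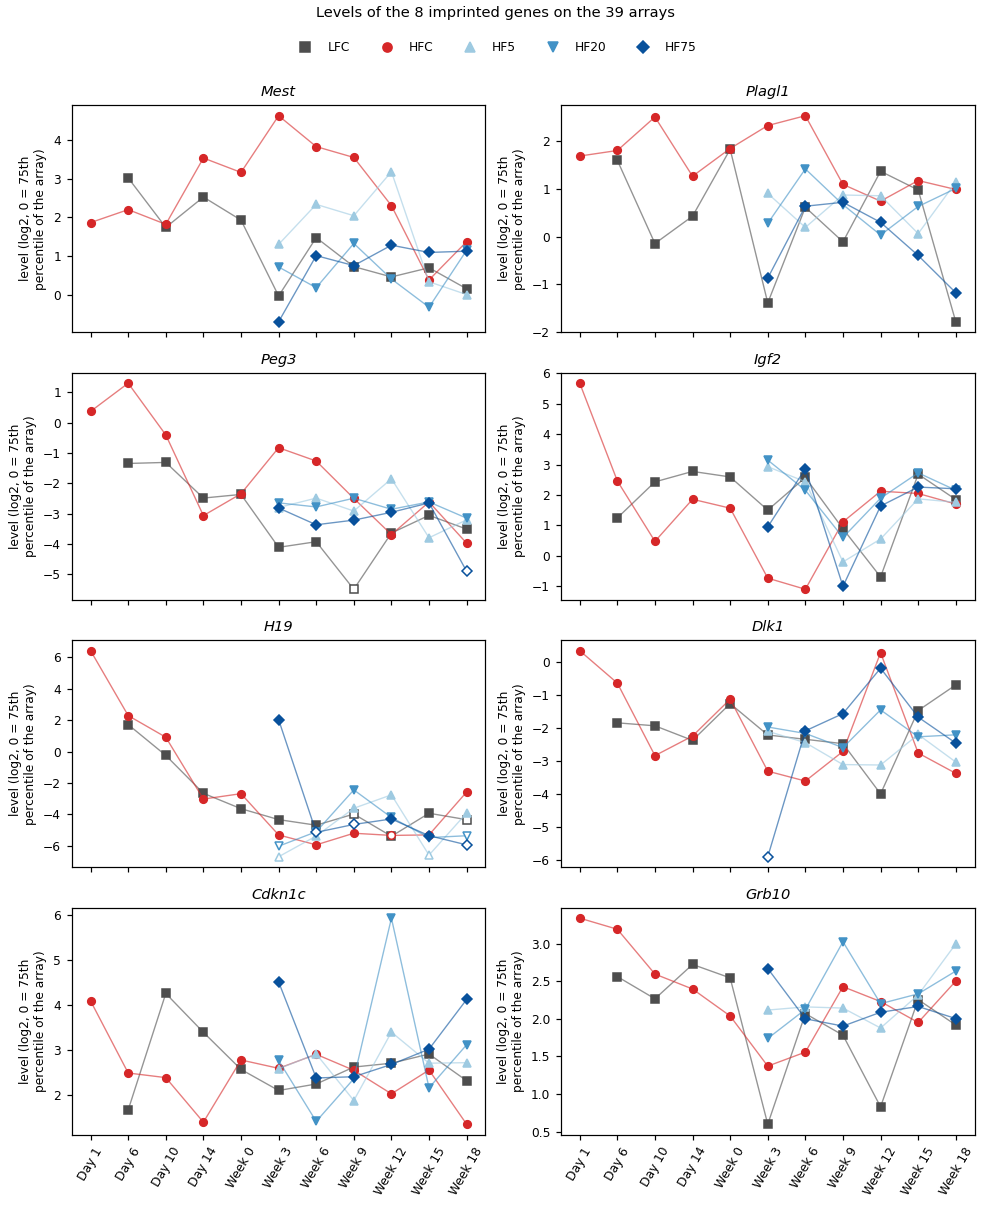
Level of each of the 8 genes (log2 of intensity relative to the 75th percentile of the array, vertical axis) at each time point (horizontal axis), with a line for each diet and open symbols where the probe was not well above background. Mest under HFC rises to 4.62 at Week 3 and comes down to 0.38 at Week 15, while H19 is high at Day 1, Day 6 and Day 10 and again on the HF75 array of Week 3.

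The 3 KAL-1 diets were measured against the same 6 HFC arrays of Week 3 to Week 18. In that order of weeks, the Mest level under HF5 was 1.30, 2.33, 2.04, 3.18, 0.34 and 0.0077. Under HF20 it was 0.72, 0.19, 1.33, 0.41, -0.32 and 1.15, and under HF75 it was -0.69, 1.01, 0.75, 1.28, 1.09 and 1.13. All 6 arrays of HF20 and of HF75 lay below the 4 highest HFC arrays, and all 6 of HF5 lay below the 3 highest. With the Week 12 pair exchanged, the highest HF20 array would be at 3.18, above the HFC array of that week.

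Over Week 3 to Week 18 the Mest means ran in the order HFC 2.67 ± 1.61, HF5 1.53 ± 1.22, HF75 0.76 ± 0.73, LFC 0.58 ± 0.53 and HF20 0.58 ± 0.62 (SD, n = 6 each). Neighbours in this order lay closer together than the SD of the more variable one, an SD that also holds the course over the weeks, which the diets share. In the fit blocked by time point the SE of a difference between diets was 0.54, and the step from HFC to HF5 was 1.14. HFC was the highest of the 5 diets in 4 of the 6 weeks. The array of HF5 Week 12, which has the highest Mest level of the KAL-1 diets, is one of the pair with conflicting labels. With that pair exchanged the means were 1.07 for HF5 and 1.04 for HF20, so that HF20 then lay above HF75 and LFC in the order.

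**Figure D2:**
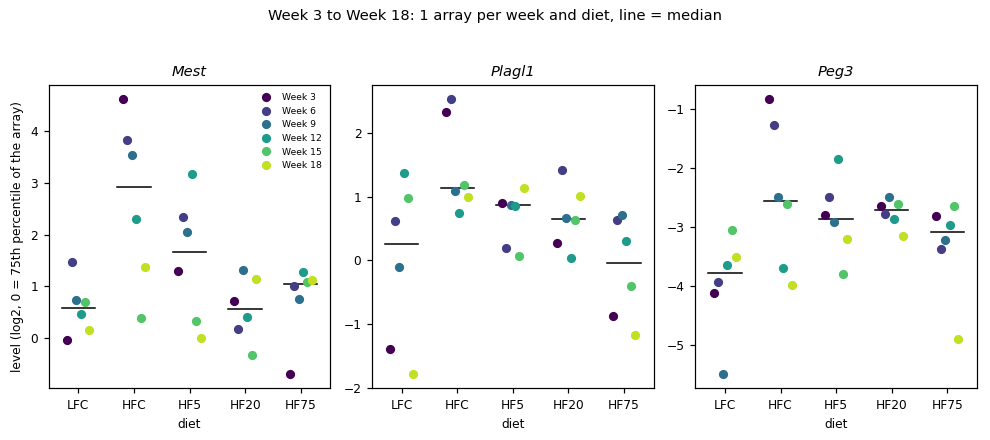
Level of Mest, Plagl1 and Peg3 (log2 of intensity relative to the 75th percentile of the array) under each of the 5 diets from Week 3 to Week 18, with a point for each array, coloured by week, and a black line at the median of each diet. The HFC points of Mest at Weeks 3, 6 and 9 (4.62, 3.82 and 3.54) lie above every point of the other diets, and the later HFC points overlap them.

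Plagl1, a zinc-finger transcription factor that regulates other imprinted genes and halts the cell cycle, was well above background on all 39 arrays. Under HFC its level was 1.69 at Day 1, 1.81 at Day 6, 2.51 at Day 10, 1.27 at Day 14, 1.85 at Week 0, 2.33 at Week 3, 2.54 at Week 6, 1.097 at Week 9, 0.74 at Week 12, 1.18 at Week 15 and 0.99 at Week 18. Under LFC it was 1.60 at Day 6, -0.15 at Day 10, 0.43 at Day 14, 1.83 at Week 0, -1.39 at Week 3, 0.62 at Week 6, -0.11 at Week 9, 1.37 at Week 12, 0.98 at Week 15 and -1.79 at Week 18. The low-fat arrays were scattered over a wide range, and HFC was above LFC at 9 of 10 time points. The late means were 1.48 ± 0.76 under HFC, 0.67 ± 0.44 under HF5, 0.67 ± 0.50 under HF20, -0.05 ± 1.29 under LFC and -0.13 ± 0.80 under HF75 (SD, n = 6 each). The step from HFC to HF5 was 0.81, about the size of the spread within HFC, and the other neighbours lay within the SD over weeks of the more variable diet. With the Week 12 pair exchanged the means were 0.54 for HF5 and 0.81 for HF20.

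Peg3, a zinc-finger protein that is read from the paternal copy and is known for its part in fetal growth and p53-linked cell death, was well above background on 37 of 39 arrays. Under HFC its level was 0.37 at Day 1, 1.29 at Day 6, -0.41 at Day 10, -3.06 at Day 14, -2.35 at Week 0, -0.83 at Week 3, -1.27 at Week 6, -2.50 at Week 9, -3.69 at Week 12, -2.62 at Week 15 and -3.97 at Week 18. Under LFC it was -1.35 at Day 6, -1.31 at Day 10, -2.49 at Day 14, -2.37 at Week 0, -4.11 at Week 3, -3.92 at Week 6, -5.49 at Week 9 (not well above background), -3.64 at Week 12, -3.06 at Week 15 and -3.51 at Week 18. Both diets lost signal after Day 10, and HFC stood 2.66 to 3.28 above LFC from Week 3 to Week 9 but not from Week 12 on, where the differences were -0.05, 0.44 and -0.46. The late means were -2.48 ± 1.26 under HFC, -2.76 ± 0.23 under HF20, -2.84 ± 0.66 under HF5, -3.32 ± 0.82 under HF75 and -3.95 ± 0.84 under LFC (SD, n = 6 each), with all neighbours within the SD over weeks of the more variable diet.

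Mest, Plagl1 and Peg3 were the members with the widest HFC-to-LFC differences, and the other 5 stayed within about 1 SE of 0 or a little more. Over the 10 shared time points the level under HFC minus that under LFC was 1.40 for Mest (SE 0.46), 1.29 for Plagl1 (SE 0.41) and 1.18 for Peg3 (SE 0.44), from a limma fit blocked by time point, while with normexp background correction the Peg3 value was 0.32. These placed the 3 genes at the percentiles 99.8, 99.7 and 99.5 of all 19876 genes tested. An unadjusted p under 0.05 was met by 3 of the 8 genes, all higher under HFC, where 1.96% of all genes were higher and 5.86% were called in either direction. An adjusted p under 0.05 was met by 0 genes of the array (0%). Since the members were chosen on this contrast, nothing is read from their count.

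Among the other members the difference was -0.63 (SE 0.52) for Igf2, -0.38 (SE 0.30) for Cdkn1c, -0.17 (SE 0.54) for Dlk1, -0.07 (SE 0.34) for H19 and 0.27 (SE 0.22) for Grb10. With other processing or a time point left out, these ran from -1.29 to -0.29 (Igf2), -0.51 to -0.13 (Cdkn1c), -0.90 to 0.11 (Dlk1), -0.41 to 0.099 (H19) and -0.12 to 0.44 (Grb10). From Week 3 to Week 18 alone, the difference was 2.09 (SE 0.54) for Mest, 1.53 (SE 0.46) for Plagl1 and 1.48 (SE 0.45) for Peg3, with HFC higher in 5, 5 and 4 of 6 weeks. Again 3 of 8 genes met the unadjusted threshold, all higher, beside 2.26% of all genes higher and 5.06% in either direction, and 0 of 21092 genes (0%) met the adjusted one. Dlk1, which was at -0.38 (SE 0.69), was higher under HFC in 1 of 6 weeks only, and that was Week 12. Without that week the Dlk1 difference was -1.32.

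**Figure D3:**
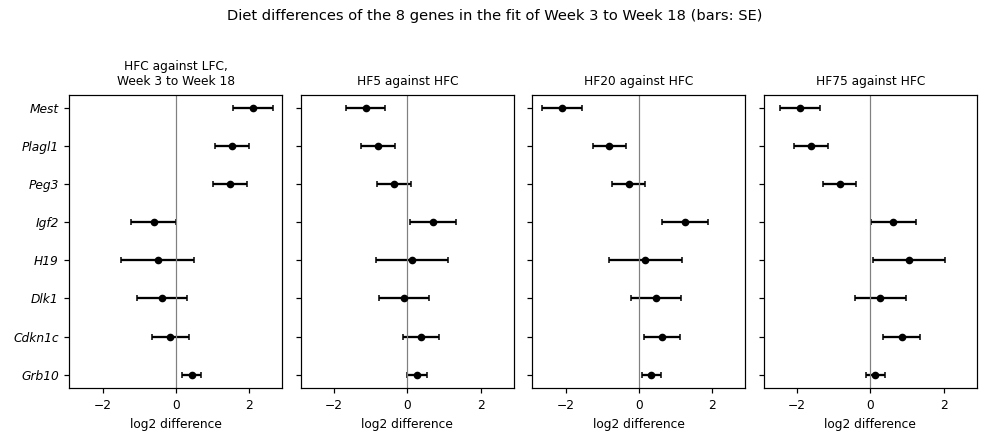
Log2 difference in level for each of the 8 genes in 4 comparisons (HFC minus LFC over Week 3 to Week 18, and each KAL-1 diet minus HFC; horizontal axes), with the SE of the limma fit as bars and a grey line at 0. Mest, Plagl1 and Peg3 lie to the positive side for HFC minus LFC and Mest and Plagl1 to the negative side for each KAL-1 diet minus HFC.

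Other cell types moved alongside these differences. The muscle marker mean of Week 3 to Week 18 ran from -4.14 to 0.41 (median -3.04) under HFC and from -3.31 to 1.56 (median -0.24) under LFC, and the macrophage marker mean (7 of 8 genes) ran from 0.32 to 1.73 under HFC and from -0.21 to 0.96 under LFC. The mean of 8 lymphocyte markers at Weeks 3, 6 and 9 was -4.52, -5.43 and -4.23 under HFC and 2.13, -2.79 and -0.08 under LFC, and at Weeks 12, 15 and 18 it was -3.46, -1.58 and -1.44 under HFC and -3.35, -2.65 and -3.80 under LFC. HFC was thus below LFC from Week 3 to Week 12 and above it at Weeks 15 and 18, and r with Mest was -0.41 over 39 arrays. The late median of 5 brown fat markers was -2.85 under HFC and -0.86 under LFC. Under HFC the mature adipocyte marker mean was 5.62, 5.76 and 5.40 at Weeks 3, 6 and 9 and 3.80, 2.16 and 4.15 at Weeks 12, 15 and 18, higher in the weeks of high Mest. Under LFC it was 3.40, 3.94 and 4.94 at Weeks 3, 6 and 9 and 5.66, 2.77 and 5.23 at Weeks 12, 15 and 18. HFC was thus above LFC from Week 3 to Week 9 and below it from Week 12 on. The mean of 10 adipose progenitor markers ran the other way under HFC, at 1.53, 0.58 and 1.91 at Weeks 3, 6 and 9 and 2.84, 2.93 and 2.94 at Weeks 12, 15 and 18, with late medians of 2.38 under HFC and 1.61 under LFC. At the early times the adipocyte mean under HFC was 2.91 at Day 1, 5.77 at Day 6, 5.96 at Day 10, 4.17 at Day 14 and 4.47 at Week 0. The r of the adipocyte mean with Mest was 0.54 over the 30 later arrays of all diets and 0.0115 over the 9 early ones. The part of these markers in the result was not tested.

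Each KAL-1 diet had a lower Mest mean than HFC, by 1.14 (SE 0.54) for HF5, 2.10 (SE 0.54) for HF20 and 1.91 (SE 0.54) for HF75. The Mest level was above HFC in 1, 0 and 1 of 6 weeks. The gaps were widest at Week 3, at -3.32, -3.90 and -5.32, and between -1.36 and 0.71 at Weeks 15 and 18, where the HFC level itself was low. With the 2 Week 12 arrays of conflicting labels exchanged, the HF5 and HF20 differences were -1.60 and -1.64. The HF20 and HF75 arrays of Week 6 had another scan day than the HFC array of that week. So did the HF5 and HF20 arrays of Week 12, and diet and scan day cannot be told apart in these gaps.

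Markers of other cell types also moved between these diets. The median of the muscle marker mean over Week 3 to Week 18 was -3.035 under HFC, -0.62 under HF5, -0.39 under HF20 and 0.067 under HF75. That of the macrophage marker mean was 1.19, 1.15, 0.18 and 0.22 in the same order. At Weeks 3, 6 and 9, where the mature adipocyte marker mean of HFC was over 5, it was 3.80, 3.77 and 5.21 under HF5, 3.91, 2.74 and 4.64 under HF20, and 3.68, 4.28 and 4.51 under HF75, below HFC each time. At Weeks 12, 15 and 18 it was 5.62, 3.35 and 3.43 under HF5, 5.65, 2.83 and 4.51 under HF20, and 4.56, 4.08 and 5.72 under HF75, above HFC except for HF5 at Week 18. The lymphocyte marker mean at Weeks 3, 6 and 9 was -2.52, -3.41 and -0.91 under HF5, -1.23, -2.06 and -0.41 under HF20, and -4.45, -3.72 and 0.0014 under HF75, above HFC each time. At Weeks 12, 15 and 18 it was -4.19, -2.90 and -1.85 under HF5, -3.59, -2.79 and -2.39 under HF20, and -3.58, -4.71 and -4.35 under HF75, below HFC each time. The part of these markers in the Mest differences was not tested.

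Plagl1 was below HFC by 0.81 (SE 0.46) for HF5, by 0.81 (SE 0.46) for HF20 and by 1.61 (SE 0.46) for HF75, where it was lower in all 6 weeks. With the slide as a random block these were -0.39, -0.13 and -1.25. Peg3 differed by -0.36, -0.28 and -0.84 (SE 0.45 each), though with normexp background correction the HF20 value was 0.63 and the HF75 value -0.08, and with the slide as a random block the HF5 value was 0.034 and the HF20 value 0.40. Igf2, a fetal growth factor, was at 0.70, 1.25 and 0.63 (SE 0.62 each). The HF75 value was -0.042 without Week 6, and the HF5 and HF20 values were 0.11 and 0.73 without Week 3. The Igf2 gap lay mostly at Weeks 3 and 6, where Igf2 under HFC was at -0.73 and -1.1. An unadjusted p under 0.05 was met by 1 of 8 genes for HF5 (Mest, lower), 1 of 8 for HF20 (Mest, lower) and 2 of 8 for HF75 (Mest and Plagl1, lower), where 0.65%, 1.25% and 3.1% of all genes were lower and 1.36%, 4.22% and 5.02% were called in either direction. An adjusted p under 0.05 was met by 0 genes (0%) in each of these comparisons, which share their HFC arrays. These differences had led to the choice of genes, and nothing is read from the counts.

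Week 3 weighs on the values of all 3 KAL-1 diets. Without it the Mest difference from HFC was -0.71 for HF5 and -1.735 for HF20, and the Plagl1 difference was -0.56 for HF20. The HF75 array of that week had the lowest Mest level of all 39 arrays (-0.69), the highest muscle marker mean (7.61) and the lowest share of spots well above background. Without Week 3 the HF75 difference from HFC was -1.23 for Mest, -1.29 for Plagl1, -0.61 for Peg3 and -0.20 for H19, the last of which was 1.06 (SE 0.99) with it.

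H19, a long non-coding RNA that shares its enhancers with Igf2 and is known to be high before birth and in muscle progenitors, was highest at Days 1, 6 and 10 under HFC and LFC. It was well above background on 28 of 39 arrays. Under HFC its level was 6.44 at Day 1, 2.30 at Day 6, 0.92 at Day 10, -3.03 at Day 14, -2.68 at Week 0, and -5.31, -5.95, -5.21, -5.35, -5.31 and -2.58 from Week 3 to Week 18. Under LFC it was 1.72 at Day 6, -0.24 at Day 10, -2.66 at Day 14, -3.64 at Week 0, and -4.34, -4.69, -3.98, -5.40, -3.93 and -4.34 from Week 3 to Week 18. The 4 arrays of Day 6 and Day 10 lay at -0.24 or above, the 4 of Day 14 and Week 0 between -3.64 and -2.66, and the 12 later ones between -5.95 and -2.58, of which 11 lay under the range of Day 14 and Week 0 and 1, HFC Week 18, just over it.

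Late minus early time points (Week 3 to Week 18 against Day 6 to Week 0, HFC and LFC together), the H19 level differed by -3.78 (SE 0.72). With normexp background correction the difference was -2.14, and the H19 probe was well above background on 5 of 6 late HFC arrays and 4 of 6 late LFC arrays. The fit had no block by time point and took arrays of a time point as independent, so its SE does not allow for what they share. As a count only, 1 of the 8 genes (H19, lower) lay past an adjusted p under 0.05, where 0.136% of 20605 genes were lower and 0.209% were called in either direction. An unadjusted p under 0.05 was met by 3 of the 8, all lower (H19, Peg3 and Grb10), where 6.76% of all genes were lower and 13% were called in either direction. The courses over time had entered the choice of genes, and nothing is read from these counts. The fitted difference was below 0 for all 8 genes, 5 of which did not pass the unadjusted threshold, against a median of -0.016 over all genes. Peg3 was at -1.71 (SE 0.52), and from -2.135 to -0.81 with other processing or a time point left out. Mest was at -0.86 (SE 0.48), Igf2 at -0.76, Grb10 at -0.75 (SE 0.25), Plagl1 at -0.68, Dlk1 at -0.61 and Cdkn1c at -0.21 (0.024 without Day 10). Age, time on the diet and most of the scan days ran together in this comparison and cannot be told apart. Within Week 3 to Week 18, with all 5 diets in the fit and again no block by time point, the Mest level changed by -0.059 per week (SE 0.034) and that of Grb10 by 0.036 (SE 0.017). Of the 8 genes 0 met an adjusted p under 0.05 for the change per week, beside 0.0948% of all genes, and 1 (Grb10, higher) met an unadjusted one, beside 9.25% higher and 15.5% in either direction.

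The H19 level moved with muscle markers. Over the 39 arrays its r with the muscle marker mean was 0.74 (rho 0.52), within the 9 arrays of Day 1 to Week 0 it was 0.94, and within the 30 later arrays it was 0.67, or 0.43 without HF75 Week 3. The points share time points and scan days. Peg3 did the same in the early arrays only, with r = 0.90 over 9 early arrays and -0.21 over 30 later ones. The part of muscle RNA in the fall of both genes was not tested. The HF5 array of Week 12, with a muscle marker mean of 5.74, had an H19 level of -2.76.

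**Figure D4:**
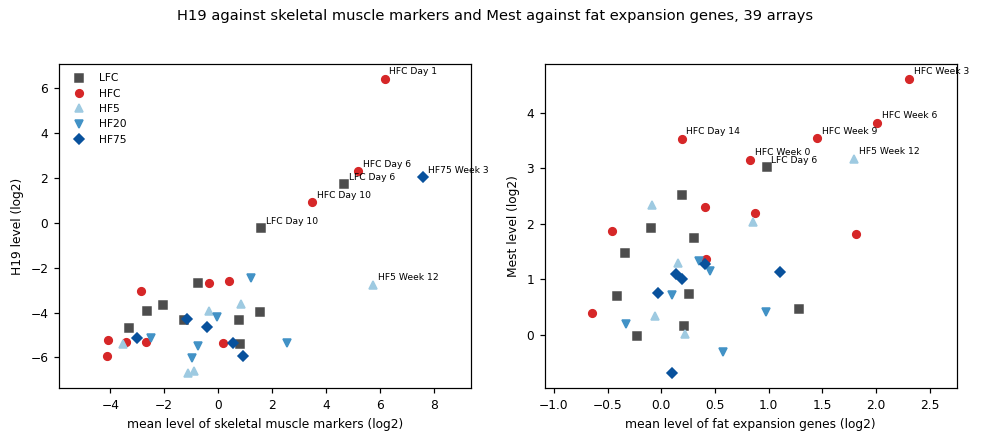
Level of H19 against the mean of 11 skeletal muscle markers (left) and of Mest against the mean of 12 fat expansion genes (right), all in log2 relative to the 75th percentile of the array, with a point for each of the 39 arrays and a colour for each diet. H19 has its top level on HFC Day 1 (6.44) and the muscle marker mean its top on HF75 Week 3 (7.61), where H19 is at 2.04 (r = 0.74 over all points). Mest and the fat expansion genes are both highest on HFC Week 3 (r = 0.58).

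Igf2, the ligand of the growth pathway, was highest on HFC Day 1 (5.67) and well above background on all arrays. In HFC tissue it was 2.46, 0.48, 1.86 and 1.57 from Day 6 to Week 0, and then -0.73, -1.10, 1.12, 2.12, 2.05 and 1.70 from Week 3 to Week 18. In LFC tissue it was 1.25, 2.43, 2.77 and 2.59 at the early times, and 1.50, 2.58, 0.89, -0.69, 2.68 and 1.85 later. Thus Igf2 under HFC was lowest at Weeks 3 and 6, when Mest was highest, and the difference from LFC turned to 2.82 at Week 12. Under HF5 it was 2.93, 2.44, -0.20, 0.55, 1.87 and 1.76, under HF20 3.15, 2.16, 0.61, 1.89, 2.73 and 2.16, and under HF75 0.95, 2.86, -1.0, 1.64, 2.26 and 2.20. Igf2 was below 1 at Week 9 under each of the KAL-1 diets and LFC.

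Dlk1, a transmembrane protein of preadipocytes that holds back fat cell formation, ranged from -5.90 to 0.36 with a median of -2.20. Its lowest array was HF75 Week 3, where the probe was not well above background, and its highest were HFC Day 1 (0.36), HFC Week 12 (0.30) and HF75 Week 12 (-0.17). Under HFC it was -3.30, -3.60, -2.70, 0.30, -2.75 and -3.37 from Week 3 to Week 18, so that Week 12 stood apart from 5 lower arrays. Under LFC it was -2.20, -2.33, -2.47, -3.99, -1.46 and -0.68, lowest in the week in which HFC was highest. At Week 12 the HFC and HF75 arrays lay on 1 slide and had 1 scan day, and the other 3 arrays had another, so diet and slide or scan day cannot be told apart in the HFC and HF75 values of that week.

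Cdkn1c, an inhibitor of cyclin-dependent kinases that restrains growth, lay between 1.34 and 5.93 with a median of 2.59. The top arrays were HF20 Week 12 (5.93), HF75 Week 3 (4.51), LFC Day 10 (4.25), HF75 Week 18 (4.12) and HFC Day 1 (4.09). The HF20 array of Week 12 also had the highest mean of 5 brown fat markers (3.14) and is one of the pair with conflicting labels. Over the 39 arrays the r of Cdkn1c was -0.69 with the macrophage marker mean and -0.62 with that of 10 adipose progenitor markers.

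Grb10, an adaptor that binds the insulin and IGF receptors and dampens their signal, lay between 0.60 and 3.34 (median 2.17). It was 3.34 on HFC Day 1 and 3.19 on HFC Day 6, and its lowest arrays were LFC Week 3 (0.60) and LFC Week 12 (0.83). All the other arrays lay at 1.37 or above.

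Of the 8 genes, 4 had several probes. The pairs of probes had r = 0.97 for Igf2, 0.81 for Peg3 and 0.51 for Plagl1 over 39 arrays, and 0.56, 0.74 and 0.58 for the 3 pairs of Grb10. For HFC minus LFC in the late weeks the dimmer probe gave a mean difference of 1.03 for Plagl1 and 1.38 for Peg3, though the dimmer Plagl1 probe was well above background on 3 of 6 late LFC arrays and the dimmer Peg3 probe on 4 of 6, so these values rest partly on signals near background. For HF75 minus HFC they gave -1.76 and -1.24, with 2 and 3 of the 6 HF75 arrays well above background, and Grb10 disagreed in sign, with 0.13 for its brightest probe and -0.60 for another.

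Mest was compared with the other members across arrays. Over 39 arrays the r with Mest was 0.57 for Plagl1 (rho 0.51) and 0.46 for Peg3 (rho 0.53), and after each level was taken relative to the mean of its time point (38 arrays) it was 0.49 and 0.48. With each level relative to the mean of its diet instead (39 arrays), r was 0.37 for Plagl1 and 0.29 for Peg3. These are the brighter probes, and the dimmer probe had r = 0.29 for Plagl1 and 0.32 for Peg3 over 39 arrays. Of all 19179 genes well above background on at least 20 arrays, the central range of r (5th to 95th percentile) was -0.42 to 0.36, and Plagl1 and Peg3 stood at the percentiles 99.7 and 98.2. An r of at least 0.5 was met by 1 of 7 members (Plagl1), where 1.03% of all genes met it, and within time points by 0 of 7, where 1.82% did. The choice of members used this correlation.

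The other members had r = 0.12 (H19), 0.07 (Dlk1), 0.05 (Grb10), -0.15 (Cdkn1c) and -0.23 (Igf2) with Mest. Without HFC Week 3 and HFC Week 6, the arrays farthest from the median of Mest, r was 0.46 for Plagl1 and 0.38 for Peg3. In the 9 early arrays Peg3 ran against Mest (r = -0.56) and Plagl1 had r = 0.03, so the likeness lay in the 30 later arrays, with 0.55 and 0.53. With another background correction (normexp), r was 0.62 for Plagl1 and 0.11 for Peg3. Among the members themselves, r was 0.62 for H19 and Peg3 but 0.06 within time points, 0.59 for Peg3 and Plagl1, 0.57 for H19 and Grb10, 0.53 for Igf2 and Dlk1, and 0.24 for the neighbours H19 and Igf2. The last turned to -0.12 within time points and -0.22 over the 30 later arrays (rho -0.14 over 39).

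**Figure D5:**
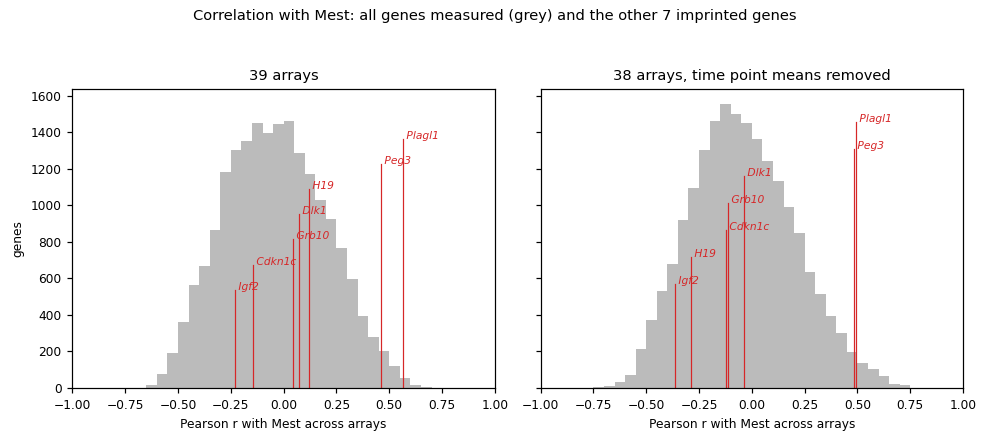
Number of genes (vertical axis, grey bars) by their Pearson r with Mest (horizontal axis) over all 39 arrays (left) and over 38 arrays after the mean of each time point was taken off (right), with red lines for the other 7 imprinted genes. Plagl1 (0.57) and Peg3 (0.46) lie in the right tail of the left panel, and the other 5 genes lie among the bulk of the genes.

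Outside the members, the genes most like Mest over the 39 arrays included D430019H16Rik (r = 0.78), Krt79 (0.70), Lep (0.69), Slc16a12 (0.68), Klf14 (0.66), Ppp2r1b (0.64), 2610019F03Rik (0.63), Hoxc8 (0.63) and 3110043O21Rik (0.63). Lep encodes leptin, the hormone that fat tissue releases in step with its mass, and Klf14 is itself an imprinted transcription factor gene. Within time points the first 10 held 4 of these, with D430019H16Rik at 0.87, Fmr1 at 0.86, Klhl2 at 0.83, Klf14 at 0.76 and Lep at 0.75. The 5 genes most opposed to Mest were ENSMUST00000103527 (-0.67), Gm7418 (-0.66), Hist1h1a (-0.63), LOC675659 (-0.63) and LOC100047162 (-0.63). With normexp correction the r of Klf14 was -0.16, of Slc16a12 0.06 and of Hoxc8 -0.28, so their likeness hung on the background correction, while that of Lep was 0.66.

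Other imprinted genes were counted in the same way. Of 65 other imprinted genes, 64 were on the array and 55 were tested for HFC against LFC over 10 time points, where 2 were higher at an unadjusted p under 0.05, 0 were lower, and 0 met the adjusted threshold, beside 1.96% of all genes higher and 5.86% in either direction. The pair was Nnat, a small membrane protein of nerve and fat cells (2.29, SE 0.76, limma adjusted p = 0.803), and Klf14 (1.25, SE 0.51, limma adjusted p = 0.803). The median difference of the 55 genes was 0.05 against -0.04 for all genes. For the KAL-1 diets, 1 was lower and 0 were higher for HF5 (Klf14, -1.48, SE 0.66, limma adjusted p = 1), 1 was lower and 0 were higher for HF20 (Klf14, -1.54, SE 0.66, limma adjusted p = 0.997), and 1 was lower and 2 were higher for HF75, of 55 tested each time, beside 1.36%, 4.22% and 5.02% of all genes called in either direction. The Klf14 probe was well above background on 23 of 39 arrays (8 of 10 HFC and 6 of 10 LFC arrays of the shared time points, and from Week 3 on 5 of 6 for HFC, 3 of 6 for HF5 and 3 of 6 for HF20), so its differences rest partly on signals near background.

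Of the 20 genes of the insulin-like growth factor axis, which holds receptors, binding proteins and regulators that act with Igf2, 17 were tested for HFC against LFC over 10 time points and 19 from Week 3 on. Over 10 time points 1 of 17 was higher at an unadjusted p under 0.05 and 0 were lower, beside 1.96% of all genes higher and 5.86% in either direction. This was Stc2, a secreted inhibitor of the protease that frees IGF from its binding proteins (1.01, SE 0.39, limma adjusted p = 0.803). From Week 3 on Stc2 was at 1.32 (SE 0.46, limma adjusted p = 0.85), and for HF75 minus HFC at -0.99 (SE 0.46, limma adjusted p = 0.866). Ghr, the growth hormone receptor, was at 1.13 (SE 0.53, limma adjusted p = 0.803) for HFC minus LFC, and -1.24 (SE 0.57, limma adjusted p = 0.997) for HF20 minus HFC. For HF5 minus HFC, Igfals was at -1.77 (SE 0.74, its probe well above background on 26 of 39 arrays) and Igfbp4 at 1.37 (SE 1.1).

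The fat expansion genes, a list chosen with earlier results of these data known, held 13 names, of which 12 were on the array and 11 were tested. For HFC against LFC over 10 time points 4 were higher and 1 was lower at an unadjusted p under 0.05, beside 1.96% of all genes higher and 5.86% in either direction. The median of the 11 was 0.44 against -0.04 for all genes, and 0 were past the adjusted threshold. Nnat, counted above among the imprinted genes, was on this list too and is 1 of the 4. The lower gene was Ptrf (-0.51, SE 0.23, limma adjusted p = 0.803). Given how the list was chosen, nothing is read from its counts here or below. Lep was 1.93 higher (SE 0.79, limma adjusted p = 0.803) and Bmp3, a secreted factor of the BMP family, 1.22 higher (SE 0.44, limma adjusted p = 0.803). For HF20 against HFC 3 were lower, with Lep at -2.01 (SE 0.87, limma adjusted p = 0.997) and Bmp3 at -1.34 (SE 0.52, limma adjusted p = 0.997), and 1 was higher, beside 1.25% of all genes lower and 4.22% in either direction. For HF75 2 of 11 were lower and 0 were higher, beside 5.02% of all genes called in either direction, and for HF5 0 of 11 were called, beside 1.36%. For HF75, Bmp3 was at -1.82 (SE 0.52) and the Wnt antagonist Sfrp5 at -1.47 (SE 0.51, its probe well above background on 3 of 6 HF75 arrays), both at 0.866 for the adjusted p of limma. Across the 39 arrays single genes of the list had r with Mest from -0.37 (Ptrf) to 0.69 (Lep). The mean of the 12 genes had r = 0.58 with Mest (rho 0.44), 0.71 in the 30 later arrays and 0.07 in the 9 early ones, and 0.41 without the 2 arrays farthest from the median. The same mean had r = -0.61 with Igf2, and the mature adipocyte marker mean had r = 0.47 with Mest and -0.56 with Igf2.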

How the data were processed

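Agilent 1-colour arrays (Cy3) of total RNA from subcutaneous adipose tissue were read, 39 in all. Per the file headers, the deposited files hold spot intensity values from Agilent Feature Extraction 10.5.1.1 (9.1 in the submitters' processing notes), background-subtracted and corrected for spatial trends, with no normalization between arrays. The deposited series table holds log2 ratios to an LFC array (for HFC Day 1, which has no LFC array of its day here, the reference is not given in the sources used here), made by the authors in GeneSpring GX, and served only to check the Week 12 labels. The study's methods describe liver arrays of the same feeding experiment.

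The log2 processed intensity minus the log2 75th percentile of the array was taken, without outlier-flagged spots, with the mean taken over the spots of a probe. No member spot was saturated. The 43803 spots other than controls lay on 36 slides and were scanned on 14 days. All arrays of a time point had 1 scan day, other than at Weeks 6 and 12 and Day 6. At Week 6 the HF20 and HF75 arrays were scanned apart from the rest, at Week 12 the HFC and HF75 arrays, and at Day 6 HFC and LFC were scanned apart. Diet and scan day cannot be told apart between arrays split in this way. The 75th percentile of intensity ran from 108 (LFC Week 18) to 1285 (HF75 Week 12). It was 950 under HFC against 339 to 551 under the other diets at Week 3, and 650 against 204 to 358 at Week 9. HFC was not the brightest diet at the other late weeks. A gene is its probe of highest mean, and was tested if its probe was well above background on as many arrays as the smallest group holds, or more.

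Comparisons used limma 3.58.1 in R 4.3.3, two-sided, with Benjamini-Hochberg adjustment over all genes at a threshold of 0.05. The diet comparisons were blocked by time point. The fits of late against early time points and of the change per week had diet as a covariate and no such block. They took arrays of a time point as independent. Apart from the time point the series has no pairing, since replicate numbers follow deposition order. The script was tested on simulated data. The members and lists were chosen with earlier results of these data known. Named genes were the members, the 10 genes with the highest and the 5 with the lowest r with Mest (and the 10 highest within time points), and in each list up to 3 genes at each end of a difference. Klf14 of the imprinted list, named for HFC against LFC, and Stc2, Ghr, Igfals, Igfbp4, Lep, Bmp3, Sfrp5 and Ptrf follow that rule. An item that the rule names is not reported here.

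Alternatives were normexp correction with an offset of 50, quantile normalization, other filters on dim probes, outlier spots left in, the mean of all probes, array weights, a robust prior with an intensity trend, no block, the scan day or slide as a block, exchanged Week 12 labels and leaving out each time point.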

Additional observations from a re-analysis of the deposited data

Results flagged for a closer look

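Of 48 groups of 4 to 10 arrays (a gene in a diet), 6 held an array that stood apart by Dixon's ratio, where chance gives about 1 in 20. On HF75 Week 3 these were Mest at -0.69 (next array 0.75), H19 at 2.04 (next -4.30) and Grb10 at 2.67 (next 2.17). That array also had the highest muscle marker mean (7.61) and the lowest share of spots well above background (49.3%), and their part was not tested.

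Dlk1 was 0.30 on HFC Week 12, where the next of the late HFC arrays was at -2.70. H19 was -2.58 on HFC Week 18, where the next of the late HFC arrays was at -5.21. Peg3 was -4.90 on HF75 Week 18, where its probe was not well above background and the next array was at -3.37.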

How the results depend on the processing

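The Mest difference kept its sign in every setting run, from 1.05 to 1.65 for HFC against LFC over 10 time points, 1.24 to 2.57 from Week 3 on, -1.60 to -0.69 for HF5, -2.47 to -1.54 for HF20 and -2.44 to -1.22 for HF75. Plagl1 did so too, from 0.79 to 1.67 and from 0.98 to 1.97 for HFC against LFC, -0.9995 to -0.39 for HF5, -1.06 to -0.13 for HF20 and -1.86 to -1.25 for HF75. Under normexp the Peg3 difference of 1.18 was 0.32 (0.28 from Week 3 on) and that for HF20 was 0.63. Normexp moved the median of all genes by -0.14, -0.22, 0.05, 0.36 and 0.21 in the 5 diet comparisons, and for HF20 it gave 8085 genes past the adjusted threshold against 0. The cause was not tested. The H19 difference of late from early time points was -2.14 under normexp, and from -4.53 to -2.14 over all settings.

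Genes past the adjusted threshold for late against early time points numbered 43, against 3 with normexp, 23 with no filter, 7 with a filter on every array, 254 with array weights and 3 to 162 with a time point left out (162 without Week 3). For the change per week (Week 3 to Week 18, diets as covariates) they numbered 20, against 1 with normexp, 3 with no filter, 4 with the mean of all probes, 421 with array weights and 0 (without Week 18) to 2894 (without Week 3) with a week left out. The Mest change per week was -0.059 (SE 0.034), and from -0.11 (without Week 3) to -0.038 with a week left out. Without the time point as a replicate block the adjusted count was 0 in all 5 diet comparisons, and the block is the time point, not a pairing of replicate numbers. The slide as a random block gave no value for HFC against LFC over 10 time points. Correlations in the early, in the later and without the HFC arrays were chosen after seeing the data. Signals near background limit H19, which was well above background on 28 of 39 arrays.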
